A study of Oryza sativa with 4 samples.

Results

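Chromosome 12 of rice (Oryza sativa) beyond its first 6 Mb was described from ATAC-seq of leaf blades. The stretch was chosen by position together with its read counts: it takes in every listed peak on chromosome 12 with a start above 6000000, and it was singled out because a small number of peaks there held much of the signal. It holds 2129 of the 46114 peaks in the deposited table (4.62%), which are annotated to 1234 genes, while 672 peaks lie in the first 6 Mb of the same chromosome. The first peak inside the boundary, at the promoter of LOC_Os12g11210 (chr12:6035713-6035992), had a mean level of 5.97 CPM, and the last peak outside it, at the promoter of LOC_Os12g11050 (chr12:5961605-5962289), had 14.0 CPM. The last peak of the chromosome is chr12:27529261-27530103. CPM is the read count of a peak per 1000000 listed reads of its library, after trimmed-mean scaling, and is the unit of all levels given here. Coordinates and gene identifiers are those of the deposited table, and its build is not stated in the labels or headers.

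The series holds 4 libraries, 2 from wild-type (WT) plants and 2 from Oshmgb1 mutants, and both genotypes had grown for 28 d under the condition that the labels call HP, which they do not spell out. OsHMGB1 is a chromatin protein of the high mobility group B family. The labels do not say what kind of mutation the mutants carry, whether they descend from a single line, or whether the libraries of a genotype came from separate plants, so the p-values measure the spread between libraries alone, and that spread may be technical. In the Oshmgb1 over WT comparison, a positive log2 fold change is a higher level in the mutants.

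In ATAC-seq the Tn5 transposase cuts DNA that is not covered by nucleosomes, so read counts are high where chromatin is open and in any DNA without nucleosomes, such as that of mitochondria and chloroplasts. Plant nuclear chromosomes carry inserted stretches of organelle DNA, and genes in such stretches are annotated under the names of organelle genes. A count table cannot tell reads of a nuclear copy from reads of the organelle genome that align to it.

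Reads in listed peaks numbered 7228483 and 8183354 for WT replicates 1 and 2, and 10400677 and 8516630 for the corresponding Oshmgb1 libraries, of which 695053, 755093, 964121 and 791715 lay on chromosome 12 beyond 6 Mb. WT replicate 1, the shallowest library, stood apart from the others at the peaks of highest level: the median log2 ratio of WT replicate 1 to WT replicate 2 was 0.12 over the 41 peaks of at least 200 CPM on chromosome 12 beyond 6 Mb and 0.13 over the 46 such peaks elsewhere, against -0.01 over the other 2088 peaks of the region. Comparisons between genotypes are therefore given with and without that library for the strong peaks together, the windows that hold them in blocks, and the peaks of ND6, ATP9 and AtMg00640. The shares of reads and the other single strong peaks are given per library or as means with that library included. All 6 leaf marker genes looked up had peaks, with a summed level of 782 and 781 CPM in the WT libraries and 755 and 762 CPM in the Oshmgb1 libraries. The 2 root marker genes summed to between 31.0 and 41.2 CPM and the single shoot meristem marker gene to between 12.8 and 16.0 CPM. These lists differ in size, so their sums are not directly comparable. By strongest peak, the leaf gene LOC_Os01g52240 had 10.9 CPM and the other leaf genes 54.4 to 160 CPM. The root genes had 26.5 and 10.8 CPM and the meristem gene 13.6 CPM, so 1 leaf gene did not stand above them.

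Chromosome 12 beyond 6 Mb held 9.62% and 9.23% of the listed reads of WT replicates 1 and 2, and 9.27% and 9.30% of those of the Oshmgb1 libraries. The genotypes overlapped, at 9.42% ± 0.275 (SD, n = 2) in WT and 9.28% ± 0.0186 (SD, n = 2) in Oshmgb1, and WT replicate 2 alone, at 9.23%, was below both Oshmgb1 libraries. The share of reads thus exceeded the 4.62% share of peaks in all 4 libraries, although the median peak of the region (13.8 CPM) was weaker than the median peak of the whole table (14.7 CPM).

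Few peaks carried that excess. The single strongest peak of the region held 4.78% of its reads in WT and 4.62% in Oshmgb1. The 10 strongest held 36.0% and 34.7% in WT replicates 1 and 2, and 34.0% in each Oshmgb1 library. Both WT libraries were above both Oshmgb1 libraries, with means of 35.4% ± 0.924 (SD, n = 2) and 34.0% ± 0.0641 (SD, n = 2), and WT replicate 1 was the highest. With 2 libraries against 2, an exact two-sided permutation test cannot give a p below 0.333, so no test was made on these shares. The 50 strongest peaks held 61.3% in WT and 59.1% in Oshmgb1, and the 100 strongest 65.3% and 63.1%.

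On chromosome 12 beyond 6 Mb, 22 peaks (1.03% of its peaks) held 50% of the reads, whereas 9397 peaks (20.4%) were needed over the whole table. The 10 strongest peaks of most other chromosomes held between 1.74% and 6.05% of their chromosome's reads in WT. Chromosome 1 (10.4%) and chromosome 9 (25.9%) lay above that range and below the 35.4% of the region described here.

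**Figure D1:**
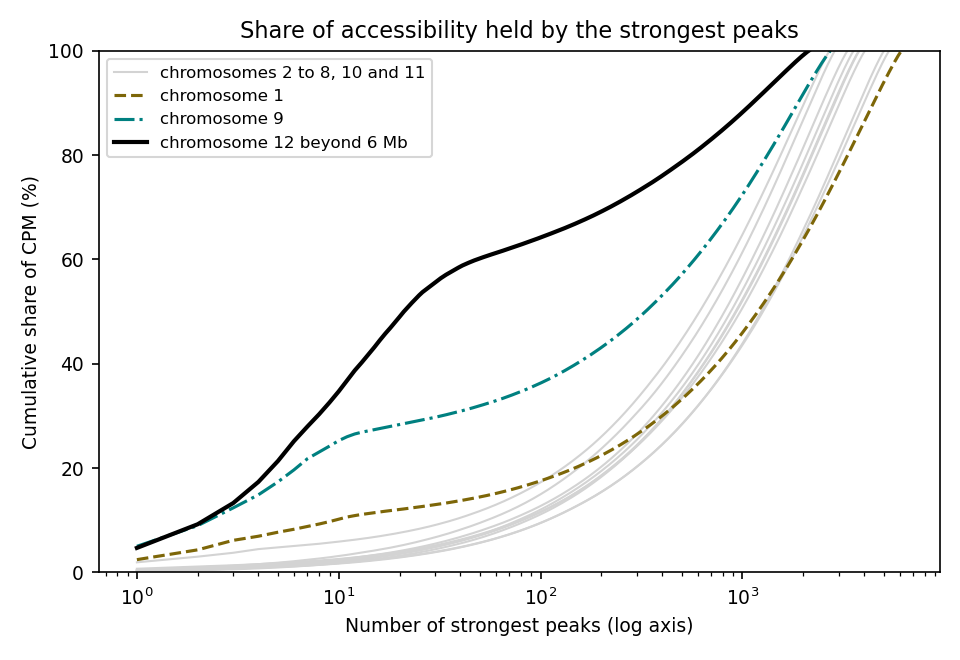
Cumulative share of CPM (y axis, percent) held by the strongest peaks (x axis, number of peaks, log scale) on chromosome 12 beyond 6 Mb (black), chromosome 1 (dashed), chromosome 9 (dash-dotted) and the other chromosomes (grey), from the mean of the 4 libraries. The black line reaches 50% at 22 peaks and then rises slowly, and from the second peak on it lies above the lines of the other chromosomes.

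In 1 Mb windows, the reads of the region piled up in 3 of 22. The window from 20 to 21 Mb held 44.4% of the region's reads in WT and 42.8% in Oshmgb1, with only 71 peaks (3.33% of the region's peaks). The window from 8 to 9 Mb held 12.6% and 12.3% with 84 peaks, and the window from 13 to 14 Mb held 6.85% and 6.72% with 95 peaks. Each of the other 19 windows held between 0.923% and 3.25%, the low end in the window from 15 to 16 Mb and the high end in that from 23 to 24 Mb.

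The windows in which the reads piled up were not those with the most peaks. Among the other windows, the lowest share of reads was in a window with the fewest peaks. The highest share was in the window with the most. The windows from 15 to 17 Mb had the fewest peaks, 63 each, and the window from 23 to 24 Mb had the most, 153. The 11 windows up to 17 Mb had a median of 85 peaks and the last 6 windows, from 22 Mb to the end, a median of 123. Over all 22 windows the median was 87.5 peaks, against 127 in the 357 other windows of the 12 chromosomes. The median level of a peak varied little between windows, from 11.2 CPM in the window from 15 to 16 Mb to 23.4 CPM in that from 20 to 21 Mb.

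**Figure D2:**
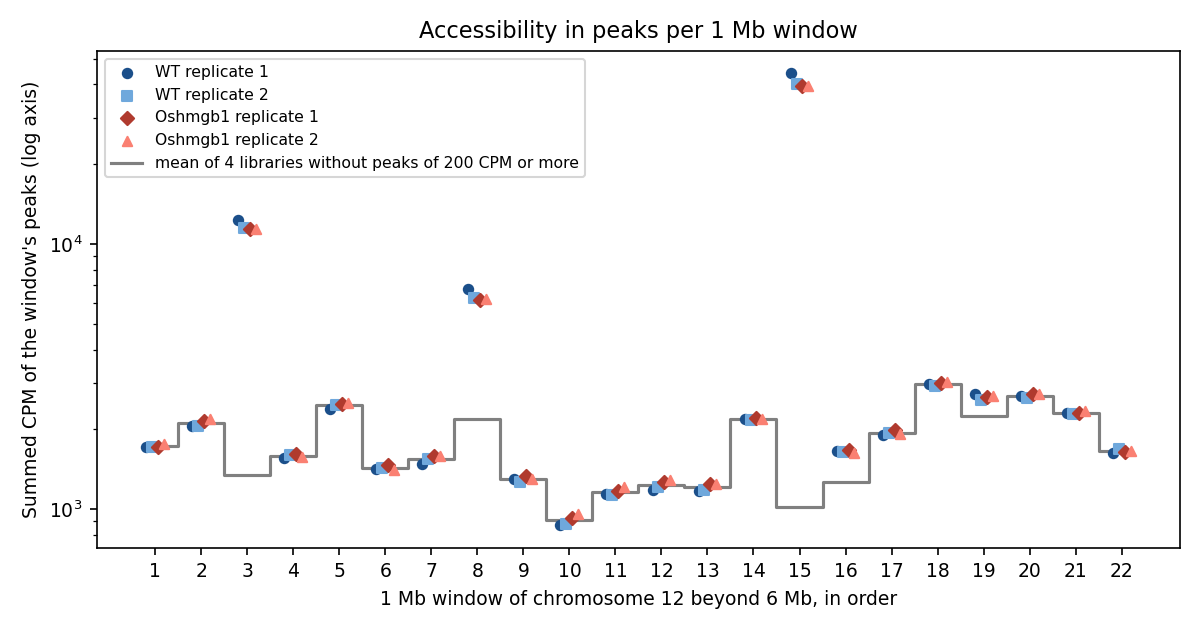
Summed CPM of all peaks (y axis, log scale) in each of the 22 windows of 1 Mb (x axis, in order along the chromosome from 6 Mb), with a point per library and a grey line for the mean without peaks of 200 CPM or more. Windows 3, 8 and 15 stand out above the rest, and without the strong peaks their levels come down to those of the other windows; WT replicate 1 is the highest library in all 3.

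A strong peak is here a peak with a mean of at least 200 CPM over the 4 libraries, a limit chosen after the levels were seen. The weakest strong peak, downstream of LOC_Os12g23610 (ATP6), had 205 CPM and the strongest below the limit, in an intron of LOC_Os12g34094 (ND4), had 173 CPM. By this limit 41 of the 2129 peaks were strong, which is 47.1% of the 87 strong peaks of the whole table. The 6 strongest peaks of all 46114 were among them, as were 12 of the top 20 and 23 of the top 40. Together the 41 held 58.7% of the region's reads.

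Of the 41 strong peaks, 39 lay in 3 blocks, defined as runs of at least 3 strong peaks with gaps of no more than 100 kb. The first block (chr12:8530901-8544449) spans 13.5 kb, has 4 peaks, all of them strong, and held 10.99% of the region's reads. The second (chr12:13349163-13419419) spans 70.3 kb, with 10 strong peaks of 15, and held 5.01%. The third (chr12:20469721-20667906) spans 198 kb, with 25 strong peaks of 27, and held 42.7%. The 46 peaks of the blocks thus held 58.7% of the reads, and the reads of the remaining 2083 peaks were spread more evenly: 23.3% of those peaks were needed for 50% of their reads, beside 22.6% on chromosomes 1 to 11.

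The strong peaks were wider and denser than the other peaks of the region. They were chosen by level, which is width times level per kb, so the choice itself favours both. Their median width was 839 bp, against 546 bp for the other peaks of the region. Per kb of peak their level ran from 324 to 1948 CPM per kb, a 6.01-fold range, with a median of 1155 CPM per kb against 23.9 CPM per kb for the others. By position relative to the annotated gene, 19 were promoter peaks, 8 intronic, 8 downstream, 2 exonic, 2 in a 5′ UTR and 2 in a 3′ UTR.

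Most strong peaks were annotated to genes with organelle gene descriptions. In 25 of the 41 the deposited description marks an organelle as the source. Such a mark is the organelle in brackets, a description that opens with mitochondrion or chloroplast, or the name OrsaiPp. Descriptions with the word chloroplastic, such as those of RBCS and PSAL, were not counted. Over all of chromosome 12 beyond 6 Mb there were 32 peaks with the mark, 64.0% of the 50 in the table, and they held 44.5% of the region's reads. Of the 32, 28 lay in the blocks. The other 4, assigned to RPL2 (3 peaks) and COX1, lay within 7.38 kb of a block and had 69.8 to 138 CPM. How much of the signal came from organelle DNA outside the nucleus was not tested.

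A first group of strong peaks carries the names of subunits of respiratory complex I, the NADH dehydrogenase that feeds electrons into the mitochondrial respiratory chain. The strongest peak of the whole table lies downstream of ND6 (LOC_Os12g34014, chr12:20534177-20537160), and its level was 4763 and 4308 CPM in WT and 4233 and 4277 CPM in Oshmgb1, replicate 1 first. WT replicate 1 was the highest and the other 3 libraries lay close together. Its log2 fold change of -0.09 ± 0.07 (SE) had an adjusted p of 0.634 by the edgeR quasi-likelihood test, and without WT replicate 1 it was -0.02 (edgeR adjusted p = 0.631).

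NAD7 (LOC_Os12g33958), another subunit of complex I, had 7 strong peaks, 4 of them intronic and 3 at its promoter, with means from 449 to 1961 CPM. Summed over the 7, its level was 8529 and 7853 CPM in WT and 7734 and 7780 CPM in Oshmgb1, the highest of any gene in the blocks. ND4 (LOC_Os12g34094), also of complex I, had a single strong peak in an intron with 858 and 813 CPM in WT and 786 and 764 CPM in Oshmgb1. At both genes the WT libraries were above the Oshmgb1 libraries. The peak assigned to LOC_Os12g14939 carries the symbol ND5 but a description of a nitrate transporter family member, so its identity is uncertain; it had 2120 and 1986 CPM in WT and 1935 and 1929 CPM in Oshmgb1.

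ATP synthase, which makes ATP from the proton gradient, supplied the next group. The peak downstream of ATP9 (LOC_Os12g34108, chr12:20657072-20660762), named for the subunit of the membrane ring, had 4606 and 4261 CPM in WT and 4008 and 4087 CPM in Oshmgb1, and both WT libraries were above both Oshmgb1 libraries. Its log2 fold change was -0.13 ± 0.07 (SE; edgeR adjusted p = 0.458). Without WT replicate 1 it was -0.07, and it was then the only strong peak called (edgeR adjusted p = 6.33e-06), in a fit with a lone WT library. At AtMg00640 (LOC_Os12g14930, chr12:8540090-8542683), described as a possible subunit b, the promoter peak had 4005 and 3705 CPM in WT and 3626 and 3666 CPM in Oshmgb1, again without overlap. Its log2 fold change was -0.08 with an edgeR adjusted p of 0.685, and -0.02 with an adjusted p of 0.525 without WT replicate 1. The strongest of 3 peaks of YMF19 (LOC_Os12g34018), described as subunit 8, had 2855 and 2595 CPM in WT and 2551 and 2546 CPM in Oshmgb1. ATP6 (LOC_Os12g23610), in the second block, had 5 strong peaks between 205 and 423 CPM. Its description is only an identifier, so its place in this group rests on the symbol alone.

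Among the 10 strongest there were also 5 peaks whose genes have less informative descriptions. LOC_Os12g34096, described as the mitochondrial reading frame orf161, had 2 of them, with means of 3799 CPM and 2100 CPM. LOC_Os12g34100, which has no description, had a 5′ UTR peak of 4037 and 3725 CPM in WT and 3734 and 3707 CPM in Oshmgb1, where the genotypes overlapped. LOC_Os12g34104, described as a hypothetical mitochondrial protein, had 2206 CPM on average. At LOC_Os12g14910, described as the chaperone dnaJ 10, the promoter peak had 3868 and 3487 CPM in WT and 3428 and 3413 CPM in Oshmgb1. Further strong peaks were assigned to YMF16, cycZ, RPS3, RL5, RPL2 and a maturase-related protein. Outside the blocks the strong peaks were an intronic peak of LOC_Os12g35520 (381 CPM) and a promoter peak of LOC_Os12g39930 (399 CPM), both described as hypothetical proteins.

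Between genotypes, the strong peaks differed by little and by nearly the same amount. Their log2 fold changes ran from -0.15 to -0.06, with a median of -0.09 and an SD of 0.0218 over the 41 peaks, and all 41 were below 0, whereas 48.9% of all listed peaks were above 0. None passed an adjusted p of 0.05 by edgeR, over a background of 0.403% of all peaks; the lowest adjusted p was 0.444, and none had an unadjusted p under 0.05 by edgeR or DESeq2. Taken peak by peak, the 95% intervals lay within 0.803-fold and 1.08-fold.

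WT replicate 1 was the highest library at 41 of the 41 strong peaks, against 28.1% of all listed peaks. Both WT libraries were above both Oshmgb1 libraries at 28 of them, against a background of 21.6% of all peaks. Without WT replicate 1 the median log2 fold change was -0.03, 32 of 41 peaks were below 0, 1 was called (over 0.429% of all peaks in that fit) and 6 had an unadjusted p under 0.05. Without WT replicate 2 the median was -0.15, 29 were called (over 1.149% of all peaks) and 40 had an unadjusted p under 0.05. The size of the difference at strong peaks, and whether any passed the test, thus turned on which WT library was used.

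The same order of libraries was seen in blocks of strong peaks on other chromosomes. Set against the mean of the 4 libraries, the summed level of the 3 blocks on chromosome 12 was 1.07, 1.09 and 1.08 in WT replicate 1, and between 0.977 and 0.988 in WT replicate 2. The Oshmgb1 libraries lay between 0.961 and 0.974. On chromosome 1 a block of 4 peaks and a block of 9, and on chromosome 9 a block of 11, gave 1.08 in WT replicate 1, 0.983 to 0.991 in WT replicate 2 and 0.952 to 0.974 in the Oshmgb1 libraries. The blocks of chromosome 12 were thus not set apart from them by their library order, and no test of a difference was made.

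**Figure D3:**
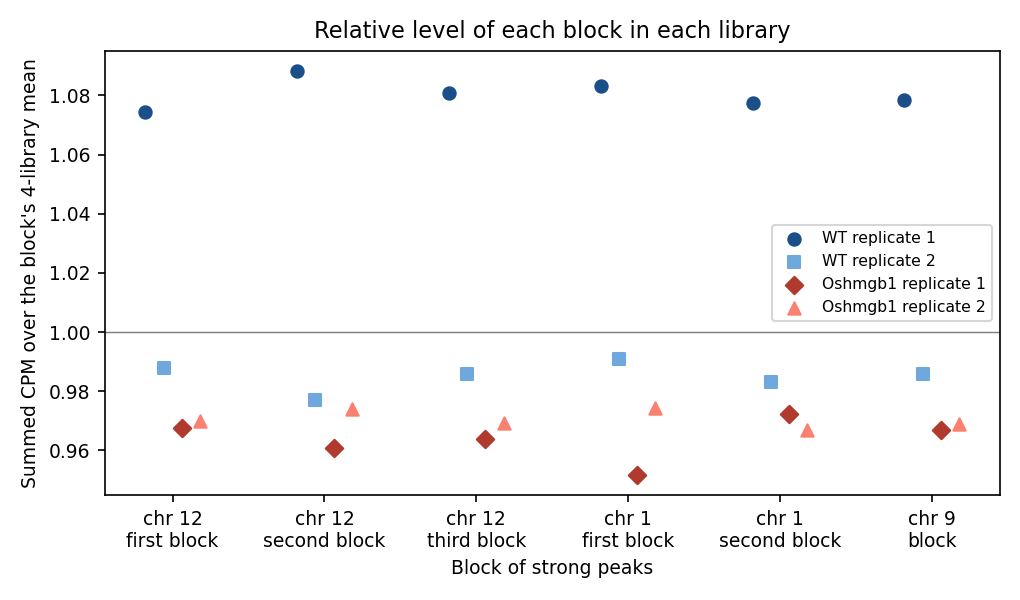
Summed CPM of each block of strong peaks divided by its mean over the 4 libraries (y axis) for the 3 blocks of chromosome 12 beyond 6 Mb and for 3 blocks on chromosomes 1 and 9 (x axis), with a point per library. WT replicate 1 lies between 1.07 and 1.09 in every block, and the other 3 libraries lie below 1.

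Away from the blocks, the values ran in the opposite direction. The 2083 other peaks held 3.75% and 3.80% of the listed reads in WT and 3.93% and 3.92% in Oshmgb1, so that both Oshmgb1 libraries were above both WT libraries, at 3.92% ± 0.00231 against 3.78% ± 0.0357 (SD, n = 2 each). Their median log2 fold change was 0.05 and 58.0% were above 0, against a median of -0.01 and 48.9% over all listed peaks. The median of chromosome 12, 0.04, was the highest of the 12 chromosomes. In the region as a whole, both Oshmgb1 libraries were above both WT libraries at 611 peaks (28.7%), over a background of 21.6%. In the first 6 Mb of the same chromosome that share was 25.7%, and 54.3% of peaks had a log2 fold change above 0.

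Peaks of like level were set side by side, because the median fold change was higher in low peaks in the region and elsewhere. Of 4 equal classes of level, the lowest reached up to 10.1 CPM, and there the median log2 fold change was 0.14 on chromosome 12 beyond 6 Mb outside the blocks and 0.06 elsewhere. In the next 2 classes it was 0.07 against 0.01 and 0.05 against -0.01, and in the highest -0.01 against -0.05. Scaling moved all of these together: with the library totals behind the deposited RPKM values the median was 0.01 outside the blocks and -0.05 over all peaks, and with totals of listed reads 0.07 and 0.01.

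Single peaks that passed the test were few. By edgeR at an adjusted p of 0.05, 13 of the 2129 peaks rose in Oshmgb1 (0.611%, over a background of 0.321% of all peaks) and 0 fell (background 0.0824%). In the first 6 Mb of the chromosome 8 of 672 peaks rose (1.19%) and 0 fell. On the other chromosomes the share that rose ran from 0.0791% on chromosome 6 to 0.777% on chromosome 10. A share above the background was thus not particular to the region. At an unadjusted p of 0.05 there were 306 peaks (14.4%, background 12.2%), 230 of them higher and 76 lower. DESeq2 called 3 of the 13 (background 0.0976%), and the authors' deposited table gives an FDR under 0.05 to 3 peaks of the region (background 0.102%), the same 3.

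**Figure D4:**
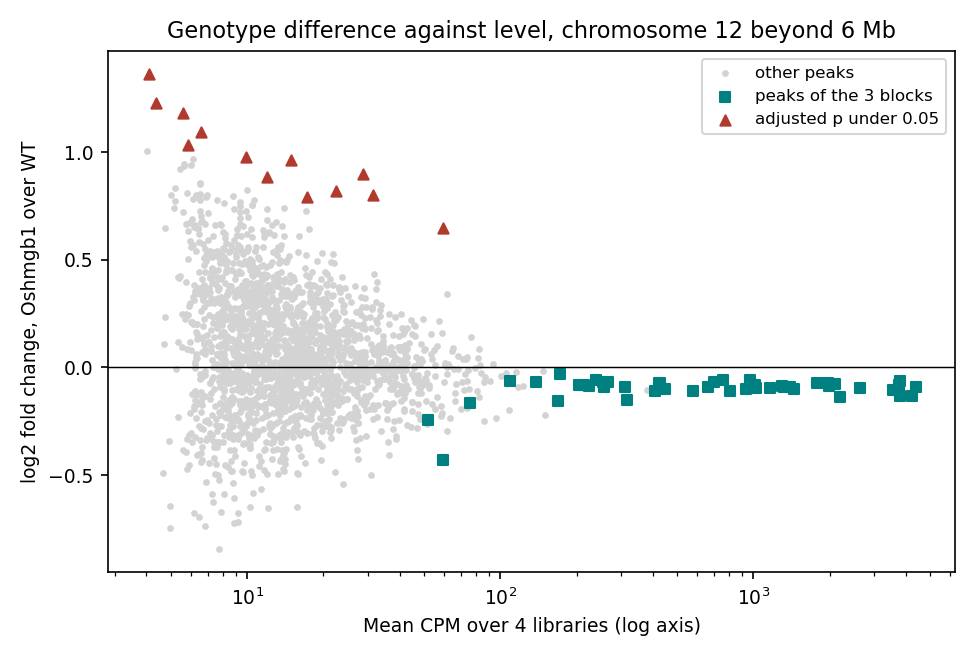
log2 fold change of Oshmgb1 over WT (y axis) against mean CPM over the 4 libraries (x axis, log scale) for the 2129 peaks of chromosome 12 beyond 6 Mb, with the 13 called peaks as red triangles and the 46 peaks of the 3 blocks as green squares. The called peaks lie between 4.08 and 59.3 CPM with log2 fold changes of 0.65 to 1.36, and the block peaks lie below 0, down to -0.43.

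The most stable call lies downstream of LOC_Os12g14230 (chr12:8081635-8083146), described as a hypothetical protein. Its level was 45.2 and 47.2 CPM in WT and 70.3 and 74.6 CPM in Oshmgb1. The groups did not overlap, and each pair of replicates differed by less than the genotypes did. It rose by 0.65 ± 0.11 on the log2 scale (SE; edgeR adjusted p = 1.24e-04), and it was the only peak of the 13 called under all 12 alternative settings, each library left out in turn included.

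The other calls shared by both tools and the authors' deposited table lie at 7.54 and 18.6 Mb. An exonic peak of LOC_Os12g13450 (chr12:7539357-7540984) had 16.8 and 23.3 CPM in WT and 40.6 and 34.5 CPM in Oshmgb1. Its log2 fold change was 0.90 ± 0.15 (SE; edgeR adjusted p = 9.39e-05). Of the 8 peaks within 25 kb, 5 were above 0, beside 58.0% of the region's peaks outside the blocks. An unadjusted edgeR p under 0.05 was found for 3 of the 8. Within 25 kb of the LOC_Os12g14230 and LOC_Os12g31040 calls there were 3 and 2 peaks, with 2 above 0 at each. At both, 0 of them had an unadjusted edgeR p under 0.05. A peak in the first intron of LOC_Os12g31040 (chr12:18648687-18649893) had 20.9 and 24.7 CPM in WT and 37.9 and 41.7 CPM in Oshmgb1, with a log2 fold change of 0.80 ± 0.15 (SE; edgeR adjusted p = 3.36e-04). At the peaks of LOC_Os12g13450 and LOC_Os12g31040 the genotypes were separate. The deposited descriptions of both genes are clone names, and no role is given for them.

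Among the called peaks near genes with a named product, LCV3 (LOC_Os12g29750), described as a LIKE COV protein, had a promoter peak of 16.7 and 15.9 CPM in WT and 26.5 and 31.0 CPM in Oshmgb1, and its log2 fold change was 0.82 (edgeR adjusted p = 0.00379). An intronic peak of DOX1 (LOC_Os12g26290), an alpha-dioxygenase that oxidizes fatty acids, had 10.7 and 9.53 CPM in WT and 18.6 and 20.8 CPM in Oshmgb1 (log2 fold change 0.96, edgeR adjusted p = 0.0043). NAC021 (LOC_Os12g41680), a transcription factor of the NAC family, had an exonic peak of 6.73 and 6.60 CPM in WT and 13.8 and 12.4 CPM in Oshmgb1 (log2 fold change 0.98, edgeR adjusted p = 0.0207). All 3 peaks were separate between the genotypes.

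The highest fold change was at a peak downstream of LOC_Os12g29500, which carries the symbol LAX2 but a description that is only an identifier, so that its product is uncertain, with 2.67 and 1.96 CPM in WT and 6.59 and 5.13 CPM in Oshmgb1, a log2 fold change of 1.36 ± 0.29 (SE; edgeR adjusted p = 0.00423). It rests on 19 and 16 reads in WT and 69 and 44 in Oshmgb1. The weakest peaks in WT had similarly few reads, such as the promoter peak of LOC_Os12g31490 with 19 and 21 reads against 64 and 53, which was called in 0 of the 4 settings that leave out a library.

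The remaining calls were at LOC_Os12g22350, LOC_Os12g28020, LOC_Os12g29590, LOC_Os12g24510 (Pol) and LOC_Os12g12650. At every one of the 13, both Oshmgb1 libraries were above both WT libraries, against 21.6% of all peaks. Fold changes of the 13 ran from 1.57-fold to 2.57-fold with a median of 1.95-fold. The test chose the 13 on these same libraries, so neither their separation nor the size of their fold changes is further support. None lay in a block, 6 were at or above the median level of all peaks (14.7 CPM), and they fell in 10 of the 22 windows. The window with the most calls held 3 of them: the peaks of LOC_Os12g29500, LOC_Os12g29590 and LCV3 lie within 250 kb in the window from 17 to 18 Mb, a span that holds 25 peaks.

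Leaving out WT replicate 1 gave 11 calls (10 higher and 1 lower), over 0.429% of all peaks called in that fit, and leaving out WT replicate 2 gave 61 (26 higher and 35 lower), over 1.149%. Leaving out Oshmgb1 replicate 1 or 2 gave 6 and 4, over 0.223% and 0.163%. Of the 13 calls, 8, 9, 5 and 4 were kept in these fits, where the lone library of a genotype is assumed to vary like the other group.

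**Figure D5:**
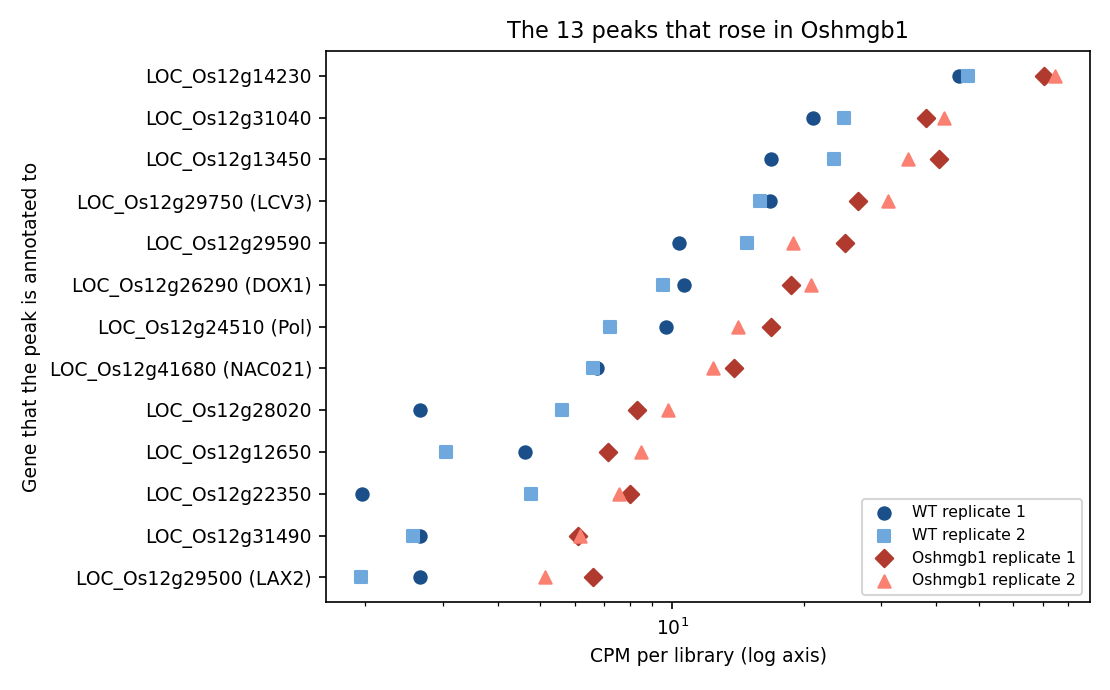
CPM in each library (x axis, log scale) of the 13 peaks of chromosome 12 beyond 6 Mb that rose in Oshmgb1, labelled with the gene to which each is annotated (y axis, ordered by mean level). The red and pink points of Oshmgb1 lie to the right of the blue points of WT for every peak. The peaks were chosen by a test on these same libraries.

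Summed over 1 Mb windows, 18 of the 22 windows had a log2 fold change above 0, against 52.0% of all 381 windows, and the values ran from -0.08 (20 to 21 Mb) to 0.12 (15 to 16 Mb). No window was called by edgeR (background 0.525%) or by DESeq2, while 7 had an unadjusted p under 0.05 by edgeR (background 13.9%) and 8 by DESeq2. All 7 were above 0. Every window's 95% interval excluded a 1.25-fold difference in either direction.

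The lowest adjusted p, 0.0928 by edgeR, was shared by a pair of windows. The window from 15 to 16 Mb summed to 864 and 879 CPM in WT and 929 and 963 CPM in Oshmgb1, and the window from 17 to 18 Mb to 1175 and 1212 CPM in WT and 1275 and 1292 CPM in Oshmgb1. The genotypes did not overlap in either. Their log2 fold changes were 0.12 ± 0.03 and 0.10 ± 0.03 (SE).

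The 3 windows that hold the blocks were below 0, at -0.06 (8 to 9 Mb), -0.06 (13 to 14 Mb) and -0.08 (20 to 21 Mb). Without WT replicate 1 they were at -0.01, -0.01 and -0.02, none of them called, and without WT replicate 2 at -0.10, -0.11 and -0.14, the last of which was called (edgeR adjusted p = 6.31e-05). With peaks of at least 200 CPM left out of every window, the window from 8 to 9 Mb turned from -0.06 to 0.13 and was called (edgeR adjusted p = 0.0127), and the windows from 15 and from 17 Mb passed as well (adjusted p = 0.0442 and 0.0493 by edgeR), over 1.84% of all windows. The windows from 13 and from 20 Mb stayed below 0, at -0.03 and -0.02.

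Outside the 3 windows with blocks and those from 21 and 24 Mb, no window had a strong peak, and its strongest peak reached between 53.3 and 150.5 CPM. The strongest of these, 150.5 CPM, was at the 3′ UTR of PSY (LOC_Os12g43130), a phytoene synthase, the entry enzyme of carotenoid synthesis, in the window from 26 Mb. A promoter peak of ORP1D (LOC_Os12g18770), an oxysterol-binding protein, had 148 CPM. CYTB5-D (LOC_Os12g12170), a cytochrome b5, had 117 CPM at its promoter, RPA1 (LOC_Os12g27370), a subunit of the single-stranded DNA-binding replication protein A, 115 CPM in its 5′ UTR, and TOM5 (LOC_Os12g38650), a subunit of the mitochondrial protein import pore, 82.4 CPM at its promoter. None of these strongest peaks was called, by edgeR or by DESeq2; their log2 fold changes ran from -0.25 at LOC_Os12g16590 to 0.14 at LOC_Os12g26220.

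Chromosome 12 beyond 6 Mb holds nuclear genes for the small subunit of Rubisco, the enzyme that fixes CO2 in the chloroplast, and 5 of the 6 peaks in the table with that description lay there. The promoter peak of RBCS (LOC_Os12g19470) was the strongest peak of the window from 11 Mb, with 86.1 and 89.9 CPM in WT and 84.6 and 86.1 CPM in Oshmgb1. The peak over its 3′ UTR had 75.5 and 73.0 CPM in WT and 72.6 and 65.3 CPM in Oshmgb1. At both peaks the WT libraries were above the Oshmgb1 libraries, at each by a margin smaller than the gap between replicates of either genotype. Neither was called, with log2 fold changes of -0.05 ± 0.10 and -0.10 ± 0.11 (SE; edgeR adjusted p = 0.898 and 0.738).

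At the second RBCS gene (LOC_Os12g17600) the 5′ UTR peak had 75.2 and 69.5 CPM in WT and 67.3 and 70.7 CPM in Oshmgb1, with overlap. Its upstream promoter peak was weaker and higher in the mutants, with 14.3 and 16.9 CPM in WT and 21.5 and 22.6 CPM in Oshmgb1, but it did not pass (log2 fold change 0.50 ± 0.18 SE, edgeR adjusted p = 0.225, unadjusted p = 0.00764). LOC_Os12g19381, counted as a Rubisco small subunit gene by its identifier and not by its empty description, had 6 peaks, of which the 5′ UTR peak had 69.0 and 69.3 CPM in WT and 61.7 and 65.8 CPM in Oshmgb1. None of its peaks was called, and the lowest unadjusted p was 0.00683, at an intronic peak of 8.28 and 10.1 CPM in WT and 12.0 and 16.3 CPM in Oshmgb1.

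Gene groups were read against all listed peaks, of which 0.403% were called by edgeR and 12.2% had an unadjusted p under 0.05. By words in the deposited descriptions, 23 peaks of 11 genes were assigned to proteins of organelle genomes. They held 31.7% of the region's reads in WT and 30.6% in Oshmgb1, 20 lay in blocks, and their median log2 fold change was -0.09. None was called, and 3 (13.04%, against 12.2% of all peaks) had an unadjusted p under 0.05, all lower. In the table as a whole, 81 peaks matched these words, so the region held 23 of 81. By the organelle mark counted further above, which is another word match, it held 32 of 50. The share of organelle-named peaks that lay in the region thus depended on the words used.

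Disease resistance proteins of the NLR type, which detect pathogen effectors inside the cell, had 51 peaks of 27 genes, 2.395% of the region's peaks against 1.53% of all peaks. None was called, and 7 higher and 4 lower (21.6%, against 12.2% of all peaks) had an unadjusted p under 0.05. The strongest were a 5′ UTR peak of RPP13 (LOC_Os12g28100) with 45.6 CPM and a promoter peak of RGA2 (LOC_Os12g32710) with 40.1 CPM. Receptor kinases, which sense signals at the cell surface, had 29 peaks of 17 genes (1.36% against 2.08% of all peaks), with none called and 3 (10.3%, against 12.2%) under an unadjusted p of 0.05. WAK2 (LOC_Os12g42070) and WAK3 (LOC_Os12g16540), wall-associated kinases, had their strongest peaks, 44.8 and 44.6 CPM.

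Transcription factors had 64 peaks of 33 genes, of which the NAC021 peak alone was called (1.56%, against 0.403% of all peaks). An unadjusted p under 0.05 was found for 5 (7.81%, against 12.2%), all higher. Their strongest peaks were at the promoter of the zinc finger gene LOC_Os12g18120 (91.3 CPM) and in an intron of HOX33 (LOC_Os12g41860, 56.1 CPM). Genes with no known function made up 401 peaks (18.8% against 11.9% of all peaks), and 4 of them rose (0.998%, against 0.321% of all peaks). An unadjusted p under 0.05 was found for 50 higher and 13 lower (15.7%, against 12.2%).

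Transposon-related descriptions were found at 18 peaks and ribosomal proteins at 14, with none called and 2 in each group at an unadjusted p under 0.05, all higher (11.1% and 14.3%, against 12.2% of all peaks). The strongest of the former was at LOC_Os12g21560, a retrotransposon (47.9 CPM), and of the latter outside the blocks at RPL8 (LOC_Os12g38000, 81.5 CPM), a protein of the large cytosolic ribosomal subunit. Heat shock proteins and chaperones had 14 peaks, none called, with 1 higher and 1 lower at an unadjusted p under 0.05 (14.3%, against 12.2%); outside the blocks the strongest was at CLPC2 (LOC_Os12g12850), a chloroplast chaperone, with 61.9 CPM. DESeq2 called no peak of any group named here other than that of no known function.

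The photosynthesis group consisted of 3 peaks of PSAL (LOC_Os12g23200), subunit XI of photosystem I. Its 5′ UTR peak had 64.95 and 57.4 CPM in WT and 59.6 and 57.1 CPM in Oshmgb1. The peak downstream had 39.0 and 43.6 CPM in WT and 34.4 and 27.9 CPM in Oshmgb1, without overlap, and did not pass (log2 fold change -0.41 ± 0.14 SE, edgeR adjusted p = 0.17). The phosphate group had a promoter peak each of PAP1 (LOC_Os12g38760) and PAP2 (LOC_Os12g44010). Both are of the purple acid phosphatase family, whose active enzymes release phosphate from organic compounds, and PAP1 is described as probably inactive. PAP1 had 15.9 and 16.6 CPM in WT and 17.2 and 17.96 CPM in Oshmgb1, and PAP2 8.42 and 6.84 CPM in WT and 8.11 and 8.98 CPM in Oshmgb1. PAP1 was separate between genotypes and PAP2 overlapped, and neither had an unadjusted p under 0.05.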

How the data were processed

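Nuclei of leaf blades were treated with Tn5 transposase, per the labels' protocols. The submitters' processing notes name the aligner Bowtie2 2.4.4, the peak caller MACS2 2.1.2 and the annotator ChIPseeker 1.16.1. The build, any Tn5 shift and any removal of duplicate or organelle reads were not given in sources used here. The authors deposited a single table of merged peaks that gives, for each library, read counts and RPKM, and for each peak their own p-value and FDR. The deposited counts were used for every result. RPKM, which the authors scaled by peak length and a library total, served only to recover those totals. The authors' deposited p-values and FDR are quoted as theirs.

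All 46114 peaks were fitted with edgeR 4.0.16 in R 4.3.3 (trimmed-mean scaling, filterByExpr, which removed none, then a quasi-likelihood test between 2 libraries of each genotype), with Benjamini-Hochberg adjustment at 0.05 over all peaks. SE is the log2 fold change divided by the root of F. Reads were also summed in 1 Mb windows by peak start over all chromosomes and fitted in the same way. DESeq2 1.42.0, other scalings, filters, window sizes, a replicate block and each library left out were alternatives. The filter alternatives removed no peak, so for single peaks they repeated the main fit and could not change a call. The code was tested on simulated counts. Total reads in listed peaks ran from 7228483 to 10400677 per library. The number of libraries, 2 a genotype, limits the precision at every peak, and at peaks with few reads the read number limits it as well. The SE was 0.07 at the strongest peak and 0.29 at the called peak of LOC_Os12g29500. Within a genotype, libraries were farther apart than counting error allows, with 2.50 (WT) and 2.25 (Oshmgb1) as the ratio of chi-square to its degrees of freedom.

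Peaks named are the 10 strongest, the strongest of each window, those called, up to 2 per gene list and those at the boundary; ND4, NAD7, ATP6, ND5 and the other block genes, and the further Rubisco peaks, were named after their values were seen. Gene lists were matched by words in descriptions, which can miss members. The members and the lists were chosen with earlier results of these data known. No sequence is printed, since no genome of the files' build was used here.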

Additional observations from a re-analysis of the deposited data

How the results depend on the processing

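The count of 13 called peaks on chromosome 12 beyond 6 Mb became 3 with DESeq2 and ran from 4 to 61 with a library left out. The count of 0 called windows became 2 with library totals alone (over 1.31% of all windows), 4 of 44 with 0.5 Mb windows (2.12%), 3 without the strongest peak of each window (2.89%) and 3 without peaks of 200 CPM or more (1.84%, chosen after seeing the data), beside 0.525% as reported, and ran from 0 to 1 with a library left out; 2 Mb windows gave 0. The replicate numbers do not pair the libraries by the labels, and the deviations of WT replicate 1 and Oshmgb1 replicate 1 had a correlation of -0.037; with the replicate block, 13 peaks (over 0.388% of all peaks) and 2 windows (2.62% of all windows) were called. The share of region reads was, by construction, 21.8% in WT and 20.9% in Oshmgb1 for the 5 strongest peaks and 49.9% and 48.1% for the 20 strongest, and 22.7% and 21.8% when the 10 were chosen by reads per kb. The region's share of listed reads was 6.46% and 6.48% without the 10 strongest peaks of the region and of the rest, and 9.47% and 9.11% in Oshmgb1 with a boundary at 5 or 7 Mb. The share of the blocks in Oshmgb1 was 57.9% and 56.7% with strong peaks set at 100 or 400 CPM (chosen after seeing the data), against 57.7%. The cause of these moves was not tested except where construction fixes them. Of the values of 71 named peaks under the alternatives, 786 kept their side of the threshold, 36 lost it and 30 gained it; 24 changed sign, 14 of them without WT replicate 1, all while past the threshold in neither fit. The filter alternatives repeated the main fit, so their values among the 786 could not move. Peaks with few reads in WT carry the widest errors.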
